A study of Mus musculus with 6 samples.

Results

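The members described here are 35 genes of glycolysis and glycogen metabolism, chosen by name from the pathway, and the regions of open chromatin at them in mouse skeletal muscle. An interval of the count table was taken as a member when it overlapped the body of a member gene or lay within 1 kb of one of its transcription start sites (TSS) in the GENCODE vM1 annotation of mm9. Of 39768 intervals, 115 were members, at 33 of the 35 genes. Of these, 80 lay within 1 kb of a TSS of the member and 35 lay in the gene body only.

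DNA accessibility was measured by ATAC-seq, in which the Tn5 transposase cuts open chromatin and the ends of the released fragments are counted. There were 3 CTL and 3 H2A.Z dKO libraries of 50000 muscle nuclei each, from C57BL/6 mice aged 7 weeks. Every mouse, CTL included, carried H2A.Z-1 flox/flox and H2A.Z-2 flox/flox, the floxed genes of the histone variant H2A.Z. The H2A.Z dKO mice also carried HSA CRE, a recombinase driven by the human skeletal actin promoter and active in post-mitotic muscle fibres, while CTL mice were without it. Nuclei of other cell types in the same muscle, such as those of blood vessels and connective tissue, are not targeted by this Cre. In bulk nuclei, fewer nuclei of a type and lower accessibility per nucleus cannot be told apart. The labels do not say that the 3 libraries of a group came from separate mice, so the p-values measure the spread between these libraries only.

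Glycolysis splits glucose into pyruvate and yields ATP without oxygen, and fast muscle fibres depend on it during short, intense work. Muscle also stores glucose as glycogen and breaks it down again through glycogen phosphorylase when contraction begins. Several steps are served by a muscle isozyme beside a widely expressed one, such as Pfkm beside Pfkl and Pfkp, Pgam2 beside Pgam1, Eno3 beside Eno1, and Pygm beside Pygb. Factors known to act on these promoters include the hypoxia-inducible factors, whose site has the core ACGTG, and the myogenic factors of the MyoD family, which bind E-boxes such as CAGCTG.

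Stretches of accessible DNA at 6 members are shown because they hold these letters at promoters of the pathway or because the interval had an unadjusted p under 0.05. They come from the mm9 genome, are written 5′ to 3′ on the strand of the gene, and leave out annotated UTRs. Capitals mark ACGTG and CAGCTG on either strand, so that CACGT is ACGTG on the other strand, and CACGTG counts as ACGTG on both. Ldha, lactate dehydrogenase A, at chr7:54101030-54101208 on the plus strand, ends 1 base before the TSS and held 4 ACGTG matches. Pfkl, the liver-type phosphofructokinase, at chr10:77472025-77472274 on the minus strand, lies in an intron, and Hk2, the hexokinase of insulin-sensitive tissues, at chr6:82724449-82724744 on the minus strand, also ends 1 base before its TSS. Ckm, muscle creatine kinase, at chr7:19996066-19996292, and Pygm, muscle glycogen phosphorylase, at chr19:6384195-6384398, both on the plus strand, held CAGCTG as well as ACGTG. Pfkm, the muscle phosphofructokinase, at chr15:97944713-97944850 on the plus strand, is an intron interval with CAGCTG.
Ldha: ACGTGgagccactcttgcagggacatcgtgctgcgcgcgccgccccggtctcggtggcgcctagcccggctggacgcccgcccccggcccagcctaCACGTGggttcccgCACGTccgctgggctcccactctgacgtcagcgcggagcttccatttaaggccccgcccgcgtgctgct
Pfkl: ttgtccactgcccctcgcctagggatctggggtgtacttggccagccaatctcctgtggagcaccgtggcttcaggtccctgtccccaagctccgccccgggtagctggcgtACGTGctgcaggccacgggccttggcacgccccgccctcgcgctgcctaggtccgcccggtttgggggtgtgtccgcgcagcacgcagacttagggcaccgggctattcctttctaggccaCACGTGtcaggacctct
Hk2: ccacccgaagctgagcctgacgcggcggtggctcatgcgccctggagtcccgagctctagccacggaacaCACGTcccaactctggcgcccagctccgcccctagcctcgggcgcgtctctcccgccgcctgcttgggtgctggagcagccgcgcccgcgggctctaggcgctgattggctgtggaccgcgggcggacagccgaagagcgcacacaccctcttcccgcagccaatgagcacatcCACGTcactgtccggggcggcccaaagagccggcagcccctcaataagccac
Ckm: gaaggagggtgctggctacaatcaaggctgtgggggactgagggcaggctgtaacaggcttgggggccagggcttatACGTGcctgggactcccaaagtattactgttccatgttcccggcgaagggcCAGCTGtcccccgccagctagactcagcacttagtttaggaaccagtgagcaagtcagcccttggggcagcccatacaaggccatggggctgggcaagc
Pygm: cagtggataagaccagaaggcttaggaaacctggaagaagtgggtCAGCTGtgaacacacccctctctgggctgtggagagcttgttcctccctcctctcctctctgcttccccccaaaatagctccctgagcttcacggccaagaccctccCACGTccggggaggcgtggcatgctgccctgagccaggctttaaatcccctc
Pfkm: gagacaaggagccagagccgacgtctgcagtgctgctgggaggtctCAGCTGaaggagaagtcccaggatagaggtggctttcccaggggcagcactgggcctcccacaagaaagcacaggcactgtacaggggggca

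To count these letters alike at every gene, a window of 300 bases was centred on the lead promoter interval, which is the interval with the highest mean count within 1 kb of a TSS. ACGTG, on either strand, was present at 19 of the 33 members (57.6%) and at 26.5% of all 11018 protein-coding genes that had a promoter interval. Among the 19 were Hk1, Hk2, Gpi1, Pfkl, Pfkfb3, Aldoa, Gapdh, Pgk1, Ldha and Gys1, and the Ldha window held 5 matches. Leaving out every window with CACGTG, which overlaps ACGTG, 15 members (45.5%) and 16.3% of all genes held it. CAGCTG was present at 9 members (27.3%), among them Ckm, Pygm, Pgam2, Phka1 and Gys1, and at 16.2% of all genes. The MEF2 box, an A- and T-rich element bound by another family of muscle factors, was present at 1 member, Pgam2, and at 1.09% of all genes. A match describes the letters of a window and is not evidence that a factor binds there. The Gys1 window lies upstream of the Gys1 TSS and overlaps annotated UTR of another gene, so its letters need not belong to Gys1 alone.

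The 6 libraries held 3520008 to 6117245 counts. The loxP sites flank exons 2 to 4 of H2afz, which encodes H2A.Z-1, at chromosome 3 from 137528097 to 137529104. The 2 intervals inside this segment together had 79, 69 and 33 counts in CTL and 57, 52 and 64 in H2A.Z dKO, or 12.4 ± 2.80 and 11.3 ± 1.52 CPM (counts-per-million of the library total; SD, n = 3). Since the groups overlap there, the counts do not show the deletion, and the second group is called the dKO-labelled libraries from here on, after their label H2A.Z dKO. Both intervals are short and hold few counts, 11 to 51 and 21 to 33 in a library, so they could miss it. For muscle of such mice the paper reports depletion of H2A.Z by RT-qPCR and western blot, with a remaining signal that it assigns to non-muscle cells. Promoter intervals of 10 of 16 muscle-fibre markers were present, Ckm among them, and summed to 587 to 750 CPM in CTL and 597 to 787 CPM in the dKO-labelled libraries. No macrophage marker of 8 had a promoter interval, and 5 of 8 endothelial markers summed to 87.9 to 95.7 CPM in CTL and 72.5 to 76.8 CPM in the dKO-labelled libraries. The median log2 fold change of their 8 promoter intervals was -0.28, and 2 were lower at an unadjusted p under 0.05. It was 0.30 for 4 of 7 fibroblast markers, 0.28 for 1 of 5 satellite cell markers, -0.18 for 3 of 6 smooth muscle and pericyte markers, -0.02 for 1 of 4 Schwann cell markers and 0.11 for the muscle-fibre markers, with 0 intervals at such a p, and no adipocyte marker of 4 had an interval. Whether these levels play a part in any member's value was not tested.

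Accessible intervals were spread unevenly over the pathway. Gbe1, the glycogen branching enzyme, had 9 intervals, Pfkm and Phkg1, the catalytic subunit of muscle phosphorylase kinase, had 8 each, and Gys1, the muscle glycogen synthase, had 7. Pkm, the pyruvate kinase listed as Pkm2 in the annotation, and Pgm2, a phosphoglucomutase, had 6 each. Of these, 2 each at Gbe1, Gys1 and Pgm2 and 1 each at Pfkm and Pkm overlap an earlier interval. The counts are thus not of separate sites, and they are not scaled to gene length. Pfkp, Pfkfb1, Pgk1, Ldhb and Phka1 had 1 each, at the promoter. Aldoc, the brain aldolase, and Eno3, the muscle enolase, had none. The interval nearest to Aldoc lay 423 bp from it, at the TSS of Pigs, and the interval nearest to Eno3 lay 2582 bp from it, at the TSS of Pfn1.

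Levels were compared as RPKM, which is CPM per kilobase of interval. The 80 promoter intervals of the members had a median of 164 RPKM, against 133 RPKM for all 20973 promoter intervals, and the 35 intervals in gene bodies had a median of 125 RPKM. Because fragment ends beside a narrow interval are counted over few bases, RPKM was also computed over the width plus 74 bp, which gave 118 RPKM for the member promoter intervals and 86.4 RPKM for all promoter intervals. The added width assumes that each end was extended by 37 bp, as the methods state, while the narrowest interval of the table is 9 bp wide, the extension of a second, narrower model in the methods, so the second value is approximate.

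**Figure D1:**
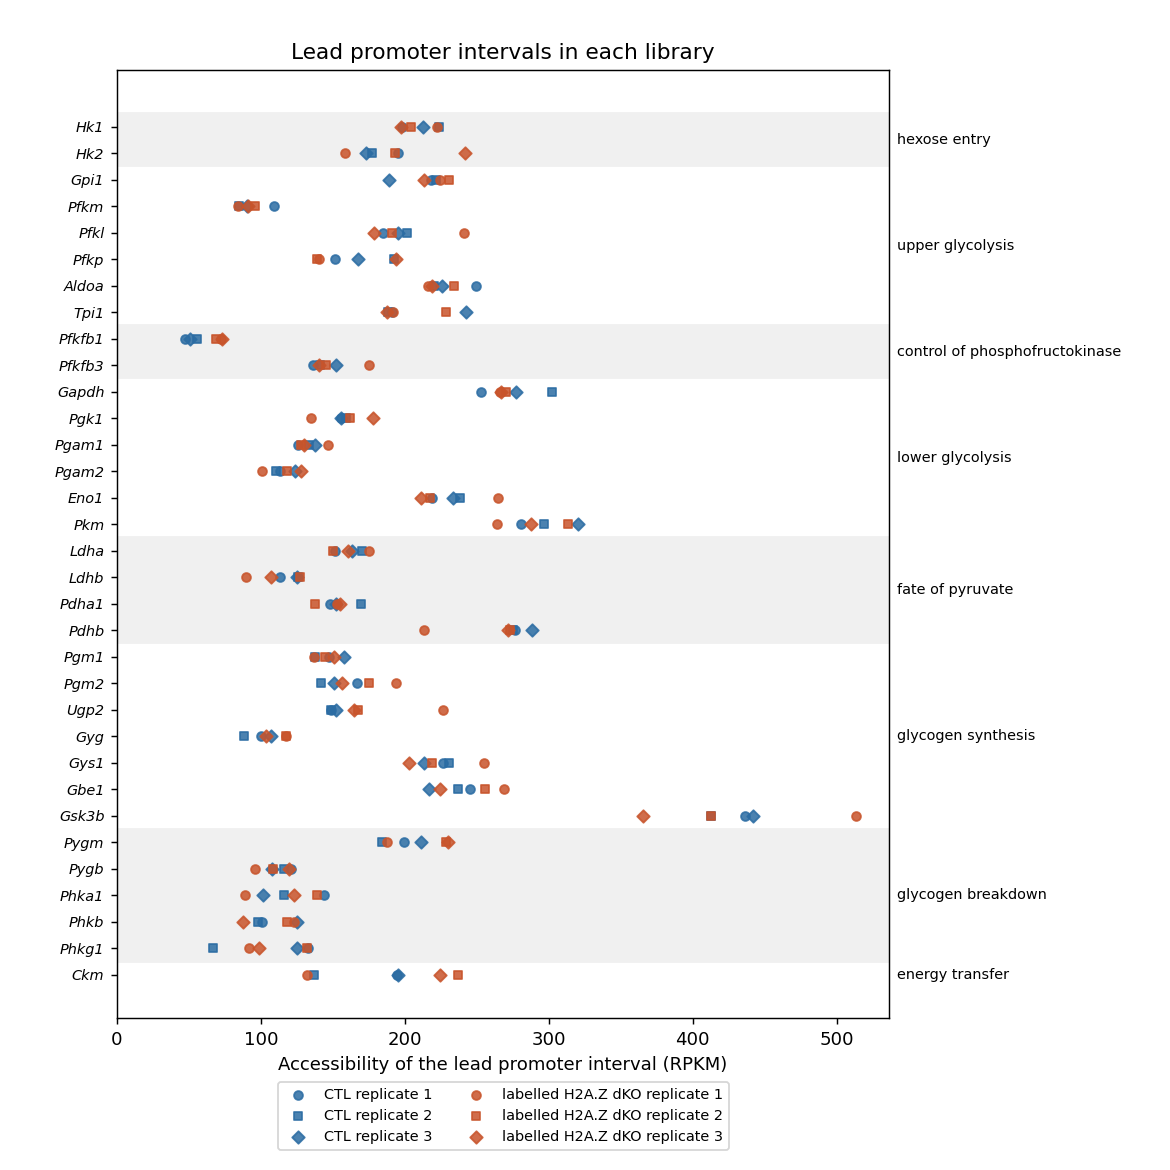
Accessibility of the lead promoter interval of each member, in RPKM, with 1 point per library (blue, CTL; orange, labelled H2A.Z dKO; circle, square and diamond, replicates 1, 2 and 3), grouped by role. Gsk3b lies apart at 366 to 513 RPKM, and Pfkfb1 has the lowest level, with CTL points below the others.

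The lead interval of Gsk3b, the kinase that inhibits glycogen synthase, was the most accessible of the pathway at 430 ± 15.5 RPKM in CTL and 431 ± 75.3 RPKM in the dKO-labelled libraries (SD, n = 3), above 99.9% of the lead intervals of all genes. Pkm followed with a mean of 294 RPKM over the 6 libraries, then Gapdh, the dehydrogenase of lower glycolysis, with 273 RPKM, and Pdhb, a subunit of pyruvate dehydrogenase, with 266 RPKM. These 3 overlapped between libraries, as the plot of lead intervals by library shows, and their order is within the spread. The lowest leads were those of Pfkfb1, which makes and degrades the activator of phosphofructokinase, with 61.2 RPKM, and Pfkm, with 92.5 RPKM. With the added width Pfkfb1 was still the lowest, at 41.5 RPKM, but Pgam2 with 59.4 RPKM and Phkg1 with 71.5 RPKM lay below Pfkm with 81.0 RPKM. The Pfkm lead also lies within 1 kb of the TSS of Senp1, and Peak_32874, at another TSS of Pfkm, had 146 RPKM. Outside the leads, Peak_15291 of Gys1 had 308 RPKM, second to Gsk3b among all member intervals, and 243 RPKM with the added width. Peak_15291 and the Gys1 lead overlap annotated UTR of another gene, upstream of the Gys1 TSS. Their levels therefore need not belong to Gys1 alone. A pair of narrow intervals ranked high only per base: Peak_15388 in Ldha, 12 bp wide, fell from 279 to 38.9 RPKM and Peak_15292 in Gys1, 64 bp wide, from 300.3 to 139 RPKM when 74 bp were added to the width.

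Between isozymes, the muscle form was not always the more accessible. Pfkm was lower than Pfkl and Pfkp in 6 of 6 libraries, with 92.5 RPKM against 199 and 164 RPKM and ratios of the means of 0.466 and 0.564. This holds for the lead of Pfkm, which lies 858.5 bp past its TSS, while Peak_32874 had 146 RPKM, nearer to both. The lead of Pygm was higher than that of Pygb, the brain glycogen phosphorylase, in 6 of 6 libraries, with 207 and 111 RPKM and a ratio of 1.59 to 2.11. Ldha was higher than Ldhb, the heart-type subunit, in all 6 libraries, with 162 and 115 RPKM. Pgam1 was higher than Pgam2 in all 6, but the means were 134 and 116 RPKM, and the Pgam2 lead is 78 bp wide, so that the ratio of Pgam2 to Pgam1 moved from 0.867 to 0.499 with the added width. For the hexokinases, the means were 210 RPKM at Hk1 and 190 RPKM at Hk2, and Hk2 was higher in 1 of 6 libraries, so their levels overlapped. These are levels of intervals of different width and sequence, and no test was made between genes.

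**Figure D2:**
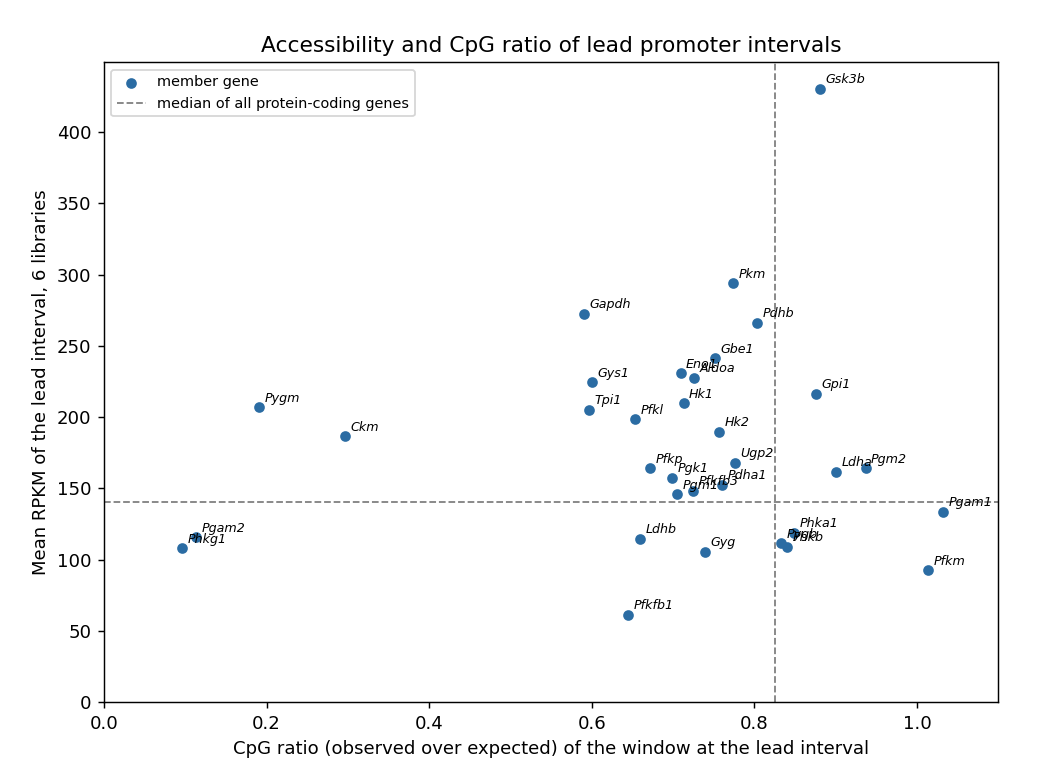
Mean RPKM of each member's lead interval over the 6 libraries (vertical axis) against the CpG ratio, observed over expected, of the 300-base window at it (horizontal axis), with dashed lines at the medians of all protein-coding genes. Phkg1, Pgam2, Pygm and Ckm lie apart at CpG ratios of 0.10 to 0.30.

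Base composition set 4 muscle genes apart from the rest of the pathway. CpG ratio is the number of CG steps over that given by the C and G content, and is high in CpG islands. The windows of Phkg1, Pgam2, Pygm and Ckm had ratios of 0.10, 0.11, 0.19 and 0.30. The Phkg1 lead lies 857 bp past its nearest TSS, so its window does not cover that TSS. By contrast, 27 of 33 members (81.8%) had at least 0.6, near the 83.7% of all genes, and Gapdh and Tpi1, the triosephosphate isomerase, lay between. A ratio under 0.4 was found at 12.1% of members and 6.96% of all genes. The levels of these 4 were spread, with 207 RPKM at Pygm, 187 RPKM at Ckm, 116 RPKM at Pgam2 and 108 RPKM at Phkg1. Their median was 151 RPKM, against 164 RPKM for the 27 members with a ratio of at least 0.6, while over all genes the medians were 105 RPKM under 0.4 and 145 RPKM from 0.6. Phka1, the regulatory subunit of muscle phosphorylase kinase, had a ratio of 0.85.

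The comparison of the dKO-labelled libraries with CTL asked whether accessibility at these genes depends on H2A.Z. No member interval passed an adjusted p under 0.05 in the quasi-likelihood test of edgeR, adjusted by the Benjamini-Hochberg method over all 39768 intervals, where 0 were called (0%) and no adjusted p fell below 0.615. The member intervals had adjusted p-values of at least 0.972. At an unadjusted p under 0.05 edgeR gave 3 member intervals (2.61%), all higher in the dKO-labelled libraries, against 1970 of all intervals (4.95%), of which 1051 (2.64%) were higher and 919 (2.31%) lower. DESeq2 also called 0 intervals, with 756 of all intervals (1.9%) and 2 members at an unadjusted p under 0.05. Among the members 76 log2 fold changes were above 0 (66.1%) and 39 below, with a median of 0.05 that ran from 0.023 (without CTL replicate 2; 0.028 without dKO-labelled replicate 1) to 0.074 (without CTL replicate 3) with 1 library left out, while 52.5% of all intervals were above 0, with a median of 0.01. A change beyond 2-fold lay outside the 95% confidence interval of 113 members (98.3%) and of 91.4% of all intervals, and a change beyond 1.5-fold lay outside that of 81 members (70.4%) and of 49.6% of all intervals.

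For each gene, counts were also summed over the intervals within 1 kb of its TSSs, keeping the stronger of overlapping ones. Of 33 members 0 passed an adjusted p under 0.05, as did 0 of 11018 genes (0%), and 1 member, Pfkfb1, had an unadjusted p under 0.05 and was higher in the dKO-labelled libraries, against 480 genes (4.36%), of which 2.34% were higher and 2.01% lower. At Pfkfb1 the sum no longer had such a p without CTL replicate 1 or in DESeq2. This sum is of 1 interval, Peak_39658, so it is not a result separate from that interval, described below. The interval is marked as a peak of H2A.Z dKO only, which favours higher counts there. A change beyond 1.5-fold lay outside the 95% confidence interval of 32 of 33 members (97.0%) and of 87.3% of all genes, and Pfkfb1 was the exception. The log2 fold change was above 0 for 22 members (66.7%) and 51.2% of all genes, with medians of 0.03 and 0.0039. The CPM of the groups did not overlap for the sums of Pfkfb1, Ugp2 and Pdhb, 3 members (9.09%) against 10.9% of all genes, with 2 higher (4.38% of all genes) and 1 lower (6.48%).

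**Figure D3:**
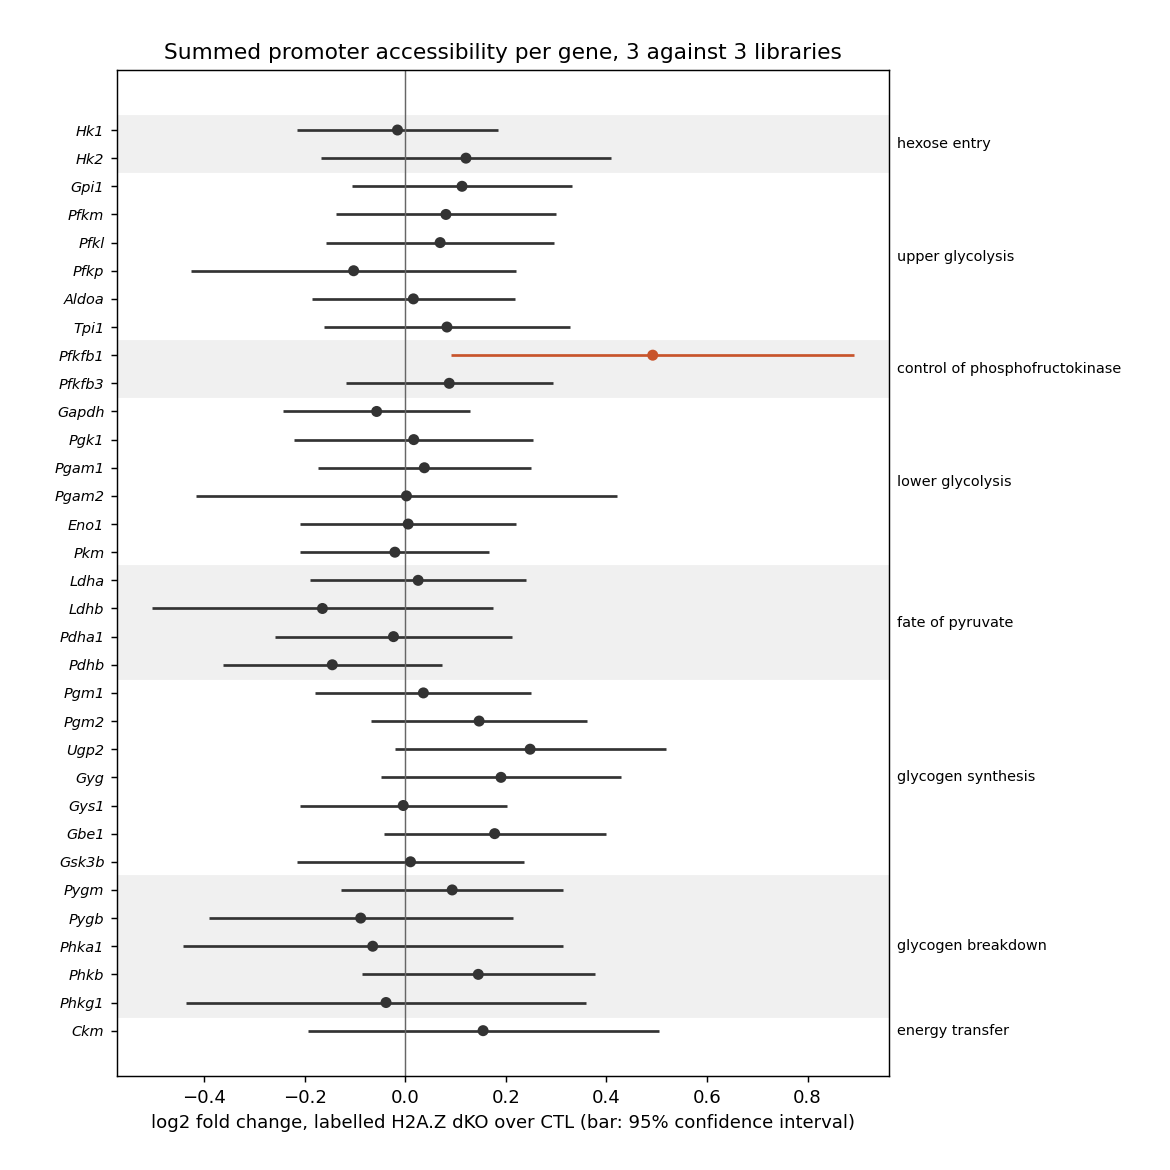
Log2 fold change of the summed promoter accessibility of each member, dKO-labelled over CTL (point), with its 95% confidence interval (bar), 3 against 3 libraries; orange marks an unadjusted p under 0.05. Only the bar of Pfkfb1 leaves out 0, and the adjusted p is 0.933 for it. The Pfkfb1 sum is of 1 interval.

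By role, the promoter sums of the genes that control phosphofructokinase were 0.49 (standard error 0.19) at Pfkfb1 and 0.09 (0.10) at Pfkfb3. In glycogen synthesis 6 of 7 genes had a positive log2 fold change. The values were 0.25 (standard error 0.13) at Ugp2, which makes UDP-glucose, 0.19 (0.11) at Gyg, the glycogenin that primes the chain, 0.18 (0.10) at Gbe1 and 0.15 (0.10) at Pgm2. They were 0.036 (0.10) at Pgm1, 0.011 (0.11) at Gsk3b, which inhibits the synthase, and -0.0037 (0.097) at Gys1, the synthase itself. Without dKO-labelled replicate 1 the values were 0.044 at Ugp2, 0.098 at Gbe1 and 0.088 at Pgm2, and without dKO-labelled replicate 3 they were 0.34, 0.28 and 0.23. In glycogen breakdown 2 of 5 were positive, with 0.15 (0.11) at Phkb, a subunit of phosphorylase kinase, and 0.09 (0.10) at Pygm. With 1 library left out they ran from 0.085 (without CTL replicate 2) to 0.22 at Phkb and from 0.019 (without dKO-labelled replicate 2) to 0.18 (without replicate 1) at Pygm. In upper glycolysis 5 of 6 and in lower glycolysis 4 of 6 were positive, with values from -0.10 to 0.11. Among genes that decide the fate of pyruvate 1 of 4 was positive, with -0.16 (0.16) at Ldhb and -0.14 (0.10) at Pdhb, which were -0.033 and -0.030 without dKO-labelled replicate 1 and -0.30 and -0.20 without replicate 2. The other two were Ldha and Pdha1, a further subunit of pyruvate dehydrogenase. Hk2 had 0.12 (0.14), which turned to -0.05 without dKO-labelled replicate 3, and Ckm had 0.15 (0.16). With 1 library left out the Ckm sum ran from 0.021, without dKO-labelled replicate 2, to 0.35, without replicate 1, and it was 0.024 without CTL replicate 2. Apart from Pfkfb1, each of these sums, with all libraries kept, had an unadjusted p above 0.05 from edgeR. Their edgeR adjusted p was at least 0.933, and the forest plot of the sums shows their intervals crossing 0.

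In 6 member intervals (5.22%) the CPM of the groups did not overlap, against 4199 of all intervals (10.6%). In 5 of them the dKO-labelled libraries were higher, a direction found in 5.26% of all intervals, and in 1 they were lower, found in 5.3%. The table marks 45 member intervals (39.1%) as peaks of both groups, 29 (25.2%) of CTL only and 41 (35.7%) of H2A.Z dKO only, against 38.7%, 17.9% and 43.4% of all intervals. An interval kept only through 1 group had to be called in all 3 of its libraries, which favours higher counts there. Of the 5 higher intervals 4, at Pfkm, Pfkfb1, Phkb and Pgm1, are marked H2A.Z dKO only, so their direction is not independent of how the intervals were chosen, while the intervals at Ugp2 and Pdhb were peaks of both groups. The interval with the smallest unadjusted p was Peak_23943, the lead of Ugp2 on chromosome 11 from 21270414 to 21271077, which had 98.6, 98.5 and 101 CPM in CTL and 150.3, 111 and 109 CPM in the dKO-labelled libraries. Replicate 1 of the latter was far above the other two, which lay just above CTL. The log2 fold change was 0.32 (95% confidence interval 0.06 to 0.58, standard error 0.12, edgeR adjusted p = 0.972), and it was 0.13 without that library. This interval also lies within 1 kb of the TSS of Gm12043, a lincRNA.

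Peak_32877, in an intron of Pfkm with its midpoint 2290.5 bp past a TSS, had 17.2, 13.4 and 15.9 CPM in CTL and 20.3, 20.2 and 22.5 CPM in the dKO-labelled libraries, where all 3 replicates lay close together. Its log2 fold change was 0.43 (95% confidence interval 0.05 to 0.82, standard error 0.19, edgeR adjusted p = 0.972). It is the Pfkm stretch with CAGCTG printed above, and its neighbour Peak_32878 had a value of 0.37 (standard error 0.19) with groups that overlap, which was 0.57 without CTL replicate 1 and 0.23 without CTL replicate 3. The promoter sum of Pfkm, over 3 of its 4 intervals near a TSS because the other overlaps a stronger one, had a log2 fold change of 0.08.

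Peak_39658, at the TSS of Pfkfb1 on chromosome X and within 1 kb of that of Apex2, had low counts, with 45, 40 and 28 in CTL and 66, 49 and 57 in the dKO-labelled libraries. These are 7.36, 8.64 and 7.95 CPM against 11.2, 10.8 and 11.4 CPM, with little spread within either group. The log2 fold change was 0.48 (95% confidence interval 0.04 to 0.93, standard error 0.22, edgeR adjusted p = 0.972), and it lay between 0.42 and 0.55 when any 1 library was left out, with an unadjusted p above 0.05 without dKO-labelled replicate 1.

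The other 3 had an unadjusted p above 0.05. Peak_18328, in an intron of Phkb, had 13.6, 11.4 and 11.4 CPM in CTL and 14.5, 15.4 and 16.9 CPM in the dKO-labelled libraries (log2 fold change 0.35, standard error 0.20). Peak_10522, in an intron of Pgm1, had 4.90, 5.40 and 4.55 CPM against 5.96, 7.25 and 6.57 CPM (log2 fold change 0.40, standard error 0.24). Peak_30101, the lead of Pdhb, was lower, with 153, 152 and 159 CPM in CTL and 118, 151 and 150.2 CPM in the dKO-labelled libraries (log2 fold change -0.15, standard error 0.10). Only replicate 1 lay clearly below CTL at Pdhb, and the log2 fold change was -0.06 without it.

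**Figure D4:**
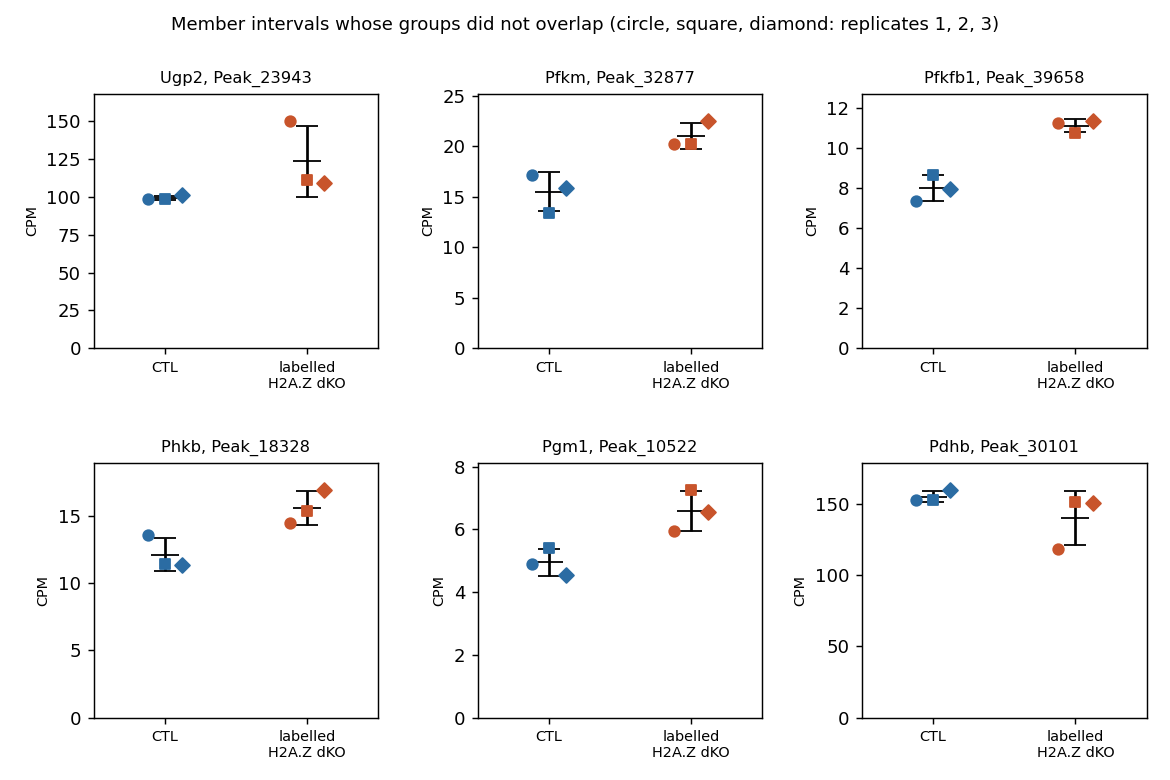
CPM in each library for the 6 member intervals whose groups did not overlap (blue, CTL; orange, labelled H2A.Z dKO; bar, mean and SD, n = 3; each panel has its own axis from 0). At Ugp2 and Pdhb replicate 1 stands apart from the other dKO-labelled libraries, while at Pfkfb1 the 3 replicates lie together.

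The other intervals with the smallest unadjusted p among those lower in the dKO-labelled libraries overlapped between groups. Peak_11741, which lies in the body of Phkg1 at the TSS of 2410018M08Rik, had 54.3, 49.0 and 50.9 CPM in CTL and 31.0, 49.9 and 50.0 CPM in the dKO-labelled libraries (log2 fold change -0.25, standard error 0.16). Peak_15388 in Ldha had only 10 to 21 counts in a library (log2 fold change -0.42, standard error 0.31). Replicate 1 of the dKO-labelled libraries had the lowest CPM at both, and without it the values were -0.07 at Peak_11741 and -0.13 at Peak_15388, while without replicate 3 they were -0.37 and -0.68. Without CTL replicate 3 Peak_15388 had -0.26.

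Libraries also differed within a group. Replicate 1 of the dKO-labelled libraries had the highest CPM of the 6 libraries at 30 and the lowest at 31 of the 115 member intervals. CTL replicate 2 was the lowest at 30 and the highest at 8, and dKO-labelled replicate 3 was the highest at 27 and the lowest at 21. Relative to the mean of the 6 libraries, the median log2 CPM at intervals in member gene bodies was -0.19 in dKO-labelled replicate 1, -0.18 in CTL replicate 2 and 0.22 in dKO-labelled replicate 3. At member promoter intervals these 3 libraries had 0.08, -0.05 and -0.03. Over the intervals of all genes away from promoters they had -0.22, -0.05 and 0.08. Ckm, at 30.0 CPM in this library, had 53.8 and 51.0 CPM in replicates 2 and 3, and 44.1, 31.1 and 44.3 CPM in CTL. CTL replicate 2 was also low at Ckm and at the Phkg1 lead, where it had 9.72 CPM against 13.3 to 19.3 CPM in the others. The same 2 libraries had the lowest summed muscle-fibre marker levels, 597 and 587 CPM, and the part this plays in the members' values was not tested.

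**Figure D5:**
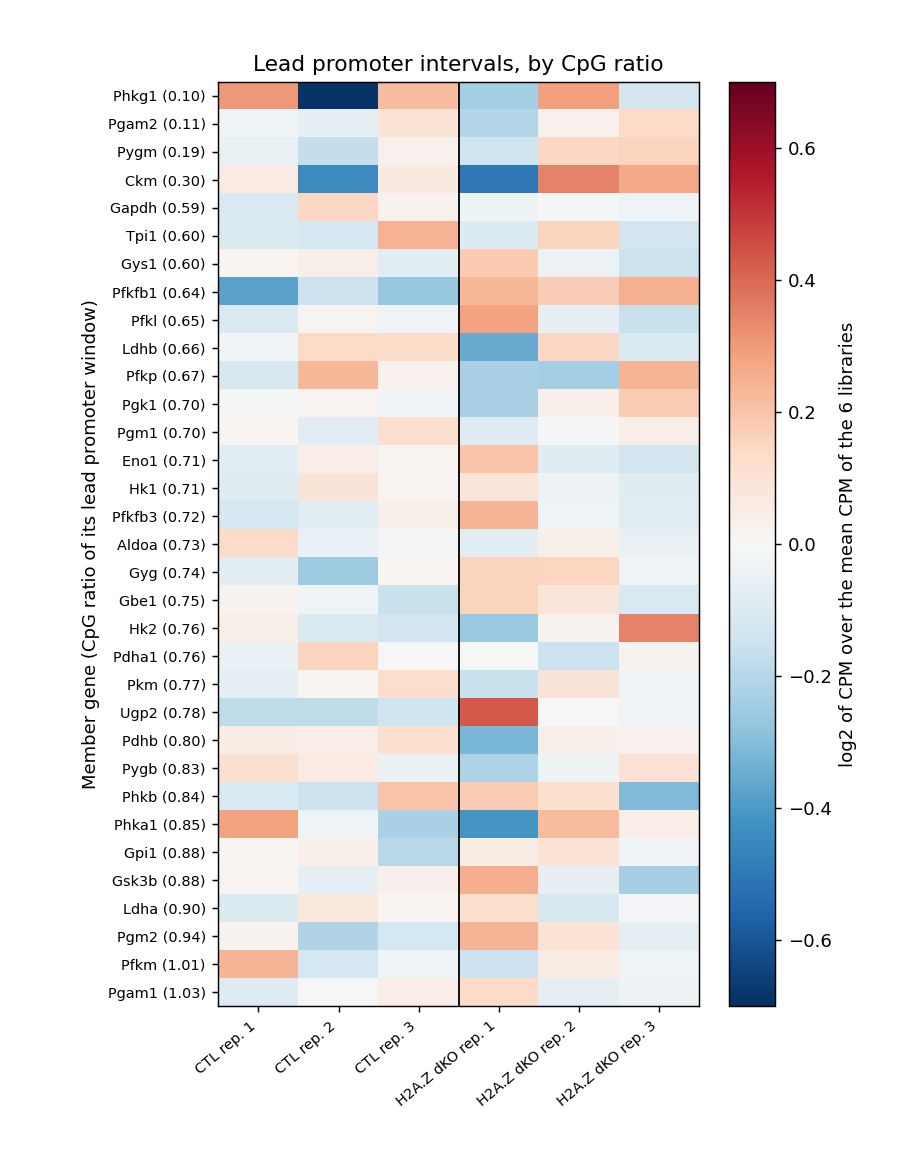
Log2 of the CPM of each member's lead interval over its mean in the 6 libraries (colour), with members ordered by the CpG ratio in parentheses. CTL replicate 2 and dKO-labelled replicate 1 are low at Ckm and Phkg1 (top), and dKO-labelled replicate 1 is high at Ugp2 and low at Phka1.

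Without replicate 1 of the dKO-labelled libraries, 7 member intervals (6.09%) had an unadjusted p under 0.05, against 3163 of all intervals (7.95%), and 0 an adjusted one. Higher were 1 interval each at Ckm, Phkb and Hk2 and 2 at Pfkm, and lower were Gsk3b Peak_33957 and Ugp2 Peak_23945, the latter with a log2 fold change of -0.23. At Ckm Peak_14688 the log2 fold change was 0.37 without this library (standard error 0.14, adjusted p = 0.529 from edgeR) and 0.16 with it, and with all others kept it was 0.01 without CTL replicate 2, 0.02 without dKO-labelled replicate 2 and 0.05 without dKO-labelled replicate 3. Gsk3b Peak_33957 had -0.17 without it (standard error 0.06, adjusted p = 0.536 from edgeR) and 0.01 with it. Ugp2 Peak_23943 and Pfkfb1 Peak_39658 were no longer among them, with log2 fold changes of 0.13 and 0.45.

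All member intervals together held 0.422 ± 0.0093% of the counts of a library in CTL and 0.434 ± 0.0111% in the dKO-labelled libraries (SD, n = 3). The ranges overlapped, from 0.411 to 0.427% and from 0.422 to 0.443%.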

How the data were processed

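The authors deposited a table of counts, the number of fragment ends of each library in each of 39768 intervals on mm9, fewer than the methods state for the wide peak model, so a gene without an interval here had none in this table only. Per the submitters' processing notes they used Trimmomatic, Bowtie2, SAMtools, Picard, bedtools, MACS2 and DESeq2, and per the methods fragment ends were shifted to the centre of the Tn5 cut, duplicates were removed, and peaks called in each library were kept where the 3 replicates of a group shared them and then united over both groups. Columns with the authors' own comparison (mean, fold change and p-values) were not used. The 6 libraries held 3520008 to 6117245 counts, and 4473 intervals overlap an earlier one, so some ends are counted more than once. Interval starts were read as counted from 0 and are printed counted from 1, and this reading rests on the file's layout. The labels name the tibialis anterior, while the methods describe nuclei from muscles of the hind limb.

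Counts were tested with edgeR 4.0.16 in R 4.3.3 (TMM factors, quasi-likelihood fit with the robust option, no filter on low counts, 3 against 3 libraries), and p-values were adjusted by the Benjamini-Hochberg method over all intervals, or over all 11018 gene sums. The fit was tested on simulated data with known changes. Alternatives were DESeq2 1.42.0, other size factors, filters, a replicate block, other member rules and each library left out. Genes came from GENCODE vM1 and sequences from the NCBIM37 genome. CPM and RPKM were computed from the deposited counts with library totals. Members, lists and tests were chosen with earlier results of these data known. Every member is accounted for by name, and values are given for lead promoter intervals of members described by role, the 3 smallest p in each direction, the 3 highest RPKM and intervals with an unadjusted p under 0.05. Intervals whose groups did not overlap were named after their values were seen. A result at 1 further gene of the pathway is not reported here.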

Additional observations from a re-analysis of the deposited data

How the results depend on the processing

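No member interval or member sum passed an adjusted p under 0.05 with edgeR or DESeq2 in any alternative. Counts at an unadjusted p under 0.05 moved. Over all intervals DESeq2 gave 756 in place of 1970. Leaving out each library gave 1265 (without CTL replicate 3) to 3163 (without dKO-labelled replicate 1). Over the member intervals leaving out each library gave 2 to 7 in place of 3. Over the member sums it gave 0 (without CTL replicate 1) to 5 (without dKO-labelled replicate 1) of 33 in place of 1. The member sums had 2 and 4 without dKO-labelled replicates 2 and 3, while DESeq2 gave 0. Over all gene sums the shares were 3.23% without CTL replicate 1 and 2.56% in DESeq2. They were 6.63%, 6.05% and 6.54% without dKO-labelled replicates 1, 2 and 3. The median of the member sums ranged from 0.021 to 0.065 with a library left out. The Hk2 sum ranged from -0.050 to 0.27 and was negative without dKO-labelled replicate 3. Gsk3b Peak_33957 ranged from -0.17 to 0.11, and was -0.0036 with a minimum mean of 20 counts and -0.011 with the replicate block. The median member level was 90.7 RPKM with 74 bp added to the width and 146 RPKM without. Same-numbered libraries showed no shared deviation, with correlations of -0.10, -0.05 and -0.03 between their deviations from the group means. With 3 libraries in a group, this does not settle whether the replicate numbers pair them. With the replicate block, unadjusted calls were 1756 over all intervals (4.42%), 2 of 115 over member intervals and 1 of 33 over member sums, against 3.86% of all gene sums. The median counts of 47 to 83 per interval in a library limit what can be detected, and 2 member intervals had a 95% confidence interval that reached beyond a 2-fold change.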

Other observations

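A further 57 genes of the pathway, listed by function, were examined in the same fit, and 42 of them had 93 promoter intervals. Of these 0 passed an adjusted p under 0.05 in edgeR, and at an unadjusted p under 0.05 there was 1 higher and 0 lower in the dKO-labelled libraries, against 2.64% higher and 2.31% lower among all intervals. Their median log2 fold change was 0.02. Among the intervals that were lower there, the smallest p was that of Peak_24942 at Slc2a4, the insulin-regulated glucose transporter, with 8.50, 8.64 and 7.10 CPM in CTL against 5.96, 5.71 and 6.37 CPM in the dKO-labelled libraries, where the groups did not overlap (log2 fold change -0.44, standard error 0.23, adjusted p = 0.972 from edgeR). At Peak_24940 of the same gene the log2 fold change was 0.35 (standard error 0.18). By function, the 11 genes of pyruvate dehydrogenase and its regulators all had a promoter interval, while 8 of the 12 other isozymes of glycolysis, such as Pklr and Eno2, had none.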
